A study of Mus musculus with 8 samples.

Results

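The genes described here are the transcription factors of the integrated stress response (ISR) and the genes that close its feedback loop, followed in mouse embryonic fibroblasts (MEFs) exposed to the G-quadruplex (G4) ligand RHPS4. They were taken by name from a list of ATF4 and CHOP pathway factors, the pseudokinase gene Trib3 and the subunits that target the eIF2α phosphatase. The list holds Atf4, Atf3, Atf5, Ddit3, Nupr1, Cebpb, Cebpg, Trib3, Ppp1r15a and Ppp1r15b. These are 10 of the 24460 genes in the count files, and all 10 of them were among the 14296 genes with enough counts to be tested.

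RNA-Seq was performed on wild-type MEF cultures grown in high-glucose DMEM without RHPS4 (0 µM, 3 libraries), with 2 µM RHPS4 (3 libraries) or with 10 µM RHPS4 (2 libraries). The libraries were stranded and were made from total RNA depleted of nuclear ribosomal RNA. The sources give more than one exposure time for RHPS4 and do not tie one to these libraries, and the labels do not say that the libraries of a dose came from separate cultures. If they did not, the p values measure only the spread between these libraries.

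In the ISR, a family of kinases that each sense a different stress phosphorylates the translation factor eIF2α, which lowers protein synthesis in general while upstream open reading frames let a few mRNAs, with Atf4 foremost, be translated more. ATF4 pairs with other basic leucine zipper (bZIP) factors, among them C/EBP proteins and CHOP (the product of Ddit3), and switches on genes for amino acid supply, redox balance and, when stress lasts, cell death. The loop is closed by TRIB3, which binds ATF4 and CHOP and dampens them, and by PPP1R15A (GADD34) and PPP1R15B (CReP), the stress-induced and the constitutive subunits that bring protein phosphatase 1 to eIF2α. Because much of the control of ATF4 is at translation, mRNA levels do not show how much ATF4 protein was made.

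The total counts per library ran from 10455965 to 26688121, and 3 counts corresponded to 0.119 to 0.311 CPM (counts scaled to library size with edgeR's TMM method). The members had between 30 counts (Atf3 in 1 library) and 7368 counts (Atf4) in a library, and such limits cover counting error only, since PCR copies are not independent molecules. Of the 0 µM libraries, replicate 1 stood apart from replicates 2 and 3, with a chi-square per degree of freedom over genes of 15.4 and 20.2 against 3.23 between the other two, so results are also given without it. The share of counts on mitochondrial DNA (mtDNA) was 13.7% ± 0.626 (SD, n = 3) at 0 µM, 7.97% ± 0.488 (n = 3) at 2 µM and 5.82% ± 0.701 (n = 2) at 10 µM. Of 10 fibroblast markers, all with counts, the summed level was 13965 to 14409, 12744 to 12969 and 12380 to 12703 CPM at 0, 2 and 10 µM. Of 15 markers of other cell types it was 15.6 to 19.0, 16.5 to 18.6 and 23.1 to 27.2 CPM, none was at 0 in every library of a dose, and Myod1 and Myog had at most 10 counts in any library. The higher sum at 10 µM went with the tubulin gene Tubb3, at 2.80 ± 0.398, 2.36 ± 0.399 and 7.30 ± 0.556 CPM, and the part of these shifts in the results below was not tested.

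A gene was called higher or lower at an adjusted p under 0.01 (edgeR's quasi-likelihood test, Benjamini-Hochberg adjusted over all tested genes) and a fold change over 1.5. At 10 µM RHPS4, 6 of the 10 members were called higher than at 0 µM and 0 were called lower: Trib3, Atf3, Ddit3, Nupr1, Atf5 and Ppp1r15a, by 1.79-fold to 5.64-fold. Of all tested genes, 3.09% were called in this comparison, 1.95% higher and 1.14% lower (279 and 163 genes). These counts moved with single libraries, to 286 higher and 347 lower without 0 µM replicate 1. They were 156 and 110 without 0 µM replicate 2, and 185 and 108 without 0 µM replicate 3. The share of higher calls also fell when either 10 µM library was left out, more so without replicate 1. Such fits leave that dose without replicates. Both 10 µM libraries lay above all 0 µM libraries for 8 of the 10 members, and for 22.9% of all tested genes. The median log2 fold change was 1.02 over the members and 0.02 over all tested genes. Without 0 µM replicate 1, 7 members were called, Atf4 being added. Ppp1r15a lost its call without 0 µM replicate 2, and was at log2 0.64 without 10 µM replicate 1. At 2 µM none of the members was called, and 0.497% of all tested genes were. Every 2 µM library lay below every 0 µM library for Atf3, Ddit3 and Nupr1, and for 12.9% of all tested genes. Bulk libraries cannot tell more cells carrying an mRNA from more mRNA per cell.

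**Figure D1:**
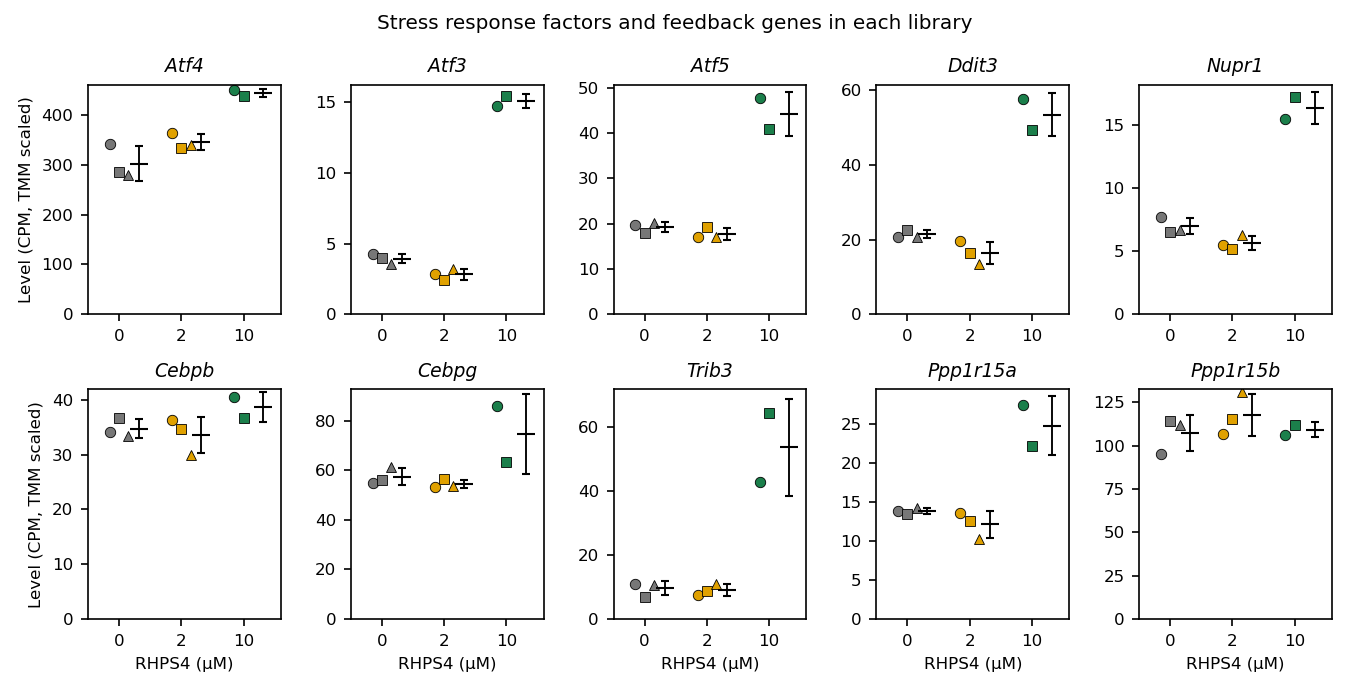
Level of each of the 10 genes in CPM (TMM scaled, y axes from 0) in each library at 0 µM (grey, n = 3), 2 µM (orange, n = 3) and 10 µM RHPS4 (green, n = 2), with circles, squares and triangles for replicates 1, 2 and 3 and the mean ± SD beside them. For Trib3, Atf3, Ddit3, Nupr1, Atf5 and Ppp1r15a both 10 µM libraries lie well above the other 6, whereas for Ppp1r15b they lie among them.

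Promoter sequences are shown for the members whose RefSeq windows held a motif that bears on the pathway or on the ligand. The windows run from 250 bases before to 50 after each annotated start in GRCm38.p6, and 9 of the 10 members had one. On both strands 4 motifs were searched: the C/EBP-ATF response element bound by ATF4 with C/EBP partners (TGATGNAAN), the cAMP response element (TGACGTCA), the ER stress element by its name, and a G4 motif of 4 runs of at least 3 G with loops of 1 to 7 bases. None of the matches overlapped another. The C/EBP-ATF element occurred in 3 of 9 members (Atf3, Nupr1 and Trib3), in 9 of 25 ATF4 and CHOP target genes with a window, and in 4.50% of all 27025 genes with one. In all 3 the element lies on the strand opposite to the gene, so the letters given are its reverse complement. In capitals are the matches in Atf3 and Nupr1, written along the strand of the gene, 103 to 111 bases before the start in both, at chr1:191183424-191183456 (minus strand) and chr7:126625561-126625593 (minus strand).
Atf3: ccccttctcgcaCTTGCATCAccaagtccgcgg
Nupr1: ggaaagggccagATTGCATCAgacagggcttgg
In Trib3 the match (TTTACATCA) lay 14 to 22 bases after the RefSeq start. It lies upstream of the Trib3 span given below, which is from another annotation (GENCODE). The cAMP response element occurred in 1 of 9 members and in 2.03% of all genes. It lay 5 to 12 bases before the start of Ppp1r15a, at chr7:45526269-45526292 (minus strand), in capitals below.
Ppp1r15a: ccgcctctccggTGACGTCAgcac
The ER stress element was in 0 of 9 members and in 0.137% of all genes, and its letters are thus missing from these windows only.

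The G4 motif is shown because RHPS4 binds such structures. It occurred in 4 of 9 members and in 20.4% of all genes, so that it is a common feature of these windows. The matches, in capitals on the strand of the gene, lay at chr1:191183369-191183418 (Atf3, minus), chr7:126625625-126625667 (Nupr1, minus), chr2:152344138-152344184 (Trib3, minus) and chr2:167688700-167688742 (Cebpb, plus). In Atf3 the G runs are on the opposite strand and read as C runs here.
Atf3: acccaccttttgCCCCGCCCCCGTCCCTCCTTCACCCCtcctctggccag
Nupr1: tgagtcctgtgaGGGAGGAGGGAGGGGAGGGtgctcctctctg
Trib3: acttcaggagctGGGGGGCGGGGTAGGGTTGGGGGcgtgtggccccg
Cebpb: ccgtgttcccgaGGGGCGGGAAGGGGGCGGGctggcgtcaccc
Cebpb held 3 such matches, of which 1 is shown. The windows of Atf4, Atf5, Ddit3 and Cebpg held none of the 4 motifs. A match is a description of the letters and not evidence of binding or of folding. Any relation between these motifs and the calls was not tested.

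Atf4 (chr15:80255184-80257541, plus strand; GRCm38, as for all gene positions here) encodes the central factor of the response. Its level was 343, 285 and 280 CPM in the 0 µM libraries, 363, 334 and 340 CPM at 2 µM, and 450 and 439 CPM at 10 µM. Both 10 µM libraries lay above all others, while the ranges at 0 and 2 µM overlapped through 0 µM replicate 1. The difference of 10 µM from 0 µM was 1.47-fold (log2 0.56 ± 0.0938 SE, edgeR's adjusted p = 0.00326), which passed the p threshold and not the minimum fold change, so Atf4 was not called. Without 0 µM replicate 1 the log2 difference was 0.63 and it was called. Between 2 and 0 µM the log2 difference was 0.19 ± 0.0850 (edgeR's adjusted p = 0.216).

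Atf3 (chr1:191170296-191218039, minus strand) encodes a stress-induced bZIP factor that acts downstream of ATF4. Its level was 4.26, 4.01 and 3.57 CPM at 0 µM, 2.82, 2.45 and 3.21 CPM at 2 µM, and 14.8 and 15.5 CPM at 10 µM. The 3 groups did not overlap, with 2 µM lowest and 10 µM highest. Atf3 rose 3.88-fold at 10 µM (log2 1.96 ± 0.134 SE, edgeR's adjusted p = 7.92e-06). At 2 µM it was 1.36-fold lower than at 0 µM, which did not pass (log2 -0.44 ± 0.157, edgeR's adjusted p = 0.137).

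Atf5 (chr7:44812256-44816658, minus strand) encodes a bZIP factor whose translation, like that of ATF4, is controlled by upstream open reading frames, and which is tied to the response to mitochondrial protein stress. Its level was 19.6, 17.9 and 20.2 CPM at 0 µM, 17.0, 19.2 and 17.0 CPM at 2 µM, and 47.7 and 40.9 CPM at 10 µM. The 0 and 2 µM libraries were interleaved and the 10 µM libraries stood above both. Atf5 rose 2.30-fold at 10 µM (log2 1.20 ± 0.103 SE, edgeR's adjusted p = 3.18e-05) and differed by log2 -0.12 ± 0.0999 at 2 µM (adjusted p = 0.528).

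Ddit3 (chr10:127290774-127296288, plus strand) encodes CHOP, the C/EBP-family factor linked to cell death in lasting stress. Its level was 20.8, 22.6 and 20.8 CPM at 0 µM, 19.5, 16.4 and 13.4 CPM at 2 µM, and 57.5 and 49.4 CPM at 10 µM. The groups did not overlap, and again 2 µM was lowest. Ddit3 rose 2.5-fold at 10 µM (log2 1.32 ± 0.130 SE, edgeR's adjusted p = 8.49e-05). The 1.32-fold lower level at 2 µM did not pass (log2 -0.40 ± 0.128, edgeR's adjusted p = 0.109). Ddit3 shares 68 exon bases with Mars on the opposite strand, a gene at log2 0.14 ± 0.0728 between 10 and 0 µM (edgeR's adjusted p = 0.215), which is named for this overlap.

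Nupr1 (chr7:126623249-126630861, minus strand) encodes a small stress-induced chromatin protein. Its level was 7.68, 6.54 and 6.63 CPM at 0 µM, 5.47, 5.14 and 6.24 CPM at 2 µM, and 15.4 and 17.2 CPM at 10 µM. As for Atf3 and Ddit3, every 2 µM library lay below every 0 µM library and both 10 µM libraries above them. Nupr1 rose 2.38-fold at 10 µM (log2 1.25 ± 0.125 SE, edgeR's adjusted p = 9.47e-05), and the difference at 2 µM was log2 -0.28 ± 0.130 (adjusted p = 0.249).

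The C/EBP partners Cebpb and Cebpg were not called in any comparison. Cebpb (chr2:167688915-167690418, plus strand), a C/EBP factor that can pair with ATF4 and CHOP, was at 34.0, 36.7 and 33.5 CPM at 0 µM, 36.2, 34.6 and 30.0 CPM at 2 µM, and 40.5 and 36.7 CPM at 10 µM. The 10 µM libraries overlapped those at 0 µM, with a log2 difference of 0.15 ± 0.101 SE (edgeR's adjusted p = 0.347). Of the exon bases of Cebpb, 20.7% overlap Tmem189 on the opposite strand, and the strand setting of the counting is not given in the sources used here, so its counts are the least certain of the 10. Cebpg (chr7:35046422-35056573, minus strand), which encodes a C/EBP partner without an activation domain of its own, was at 54.8, 55.9 and 61.4 CPM at 0 µM, 53.3, 56.5 and 53.7 CPM at 2 µM, and 86.0 and 63.2 CPM at 10 µM. Both 10 µM libraries were highest, yet they differed widely from each other. The log2 difference of 0.38 ± 0.115 between 10 and 0 µM did not pass (edgeR's adjusted p = 0.0506). Without 10 µM replicate 1 this difference was log2 0.11. Against 2 µM Cebpg was not called with all libraries (log2 0.45), was at log2 0.17 without 10 µM replicate 1 and was called without 10 µM replicate 2 (log2 0.62).

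Trib3 (chr2:152337422-152344032, minus strand), the feedback pseudokinase, had the largest fold change of the members. Its level was 11.1, 7.04 and 10.7 CPM at 0 µM, 7.49, 8.72 and 11.1 CPM at 2 µM, and 42.9 and 64.2 CPM at 10 µM. The libraries at 0 and 2 µM spanned the same range and both 10 µM libraries lay far above it. Trib3 rose 5.64-fold at 10 µM (log2 2.495 ± 0.210 SE, edgeR's adjusted p = 2.82e-05), which ranked 6 among all tested genes by log2 fold change. At 2 µM the log2 difference was -0.04 ± 0.222 (edgeR's adjusted p = 0.938), and its sign turned when any of 3 libraries was left out. The related genes Trib1 and Trib2, which encode pseudokinases of the same family, were not called in any comparison (0 of 2 by edgeR and by DESeq2). Their log2 differences between 10 and 0 µM were -0.33 ± 0.135 and -0.07 ± 0.0784. By edgeR 1 of 2 had an unadjusted p under 0.05 in both comparisons of 10 µM, where 29.4% and 36.5% of all tested genes did. Of all tested genes 0.497%, 3.09% and 5.51% were called at 2 against 0, 10 against 0 and 10 against 2 µM. At such shares 0 of 2 called is the common outcome.

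Of the phosphatase subunits, Ppp1r15a was called at 10 µM and Ppp1r15b was not. Ppp1r15a (chr7:45522916-45526268, minus strand), the inducible subunit, was at 13.9, 13.4 and 14.3 CPM at 0 µM, 13.6, 12.6 and 10.2 CPM at 2 µM, and 27.5 and 22.2 CPM at 10 µM. The 10 µM libraries were above all others. Ppp1r15a rose 1.79-fold at 10 µM (log2 0.84 ± 0.130 SE, edgeR's adjusted p = 0.00196), but the call was lost without 0 µM replicate 2 (log2 0.80, adjusted p = 0.0150) and without 10 µM replicate 1 (log2 0.64, adjusted p = 0.0268). Ppp1r15b (chr1:133131143-133139783, plus strand), the constitutive subunit, was at 95.4, 114 and 112 CPM at 0 µM, 107, 115 and 131 CPM at 2 µM, and 106 and 112 CPM at 10 µM. All 3 groups overlapped, and the log2 difference between 10 and 0 µM was 0.02 ± 0.104 (edgeR's adjusted p = 0.913), with a sign that depended on the libraries and the filter used.

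**Figure D2:**
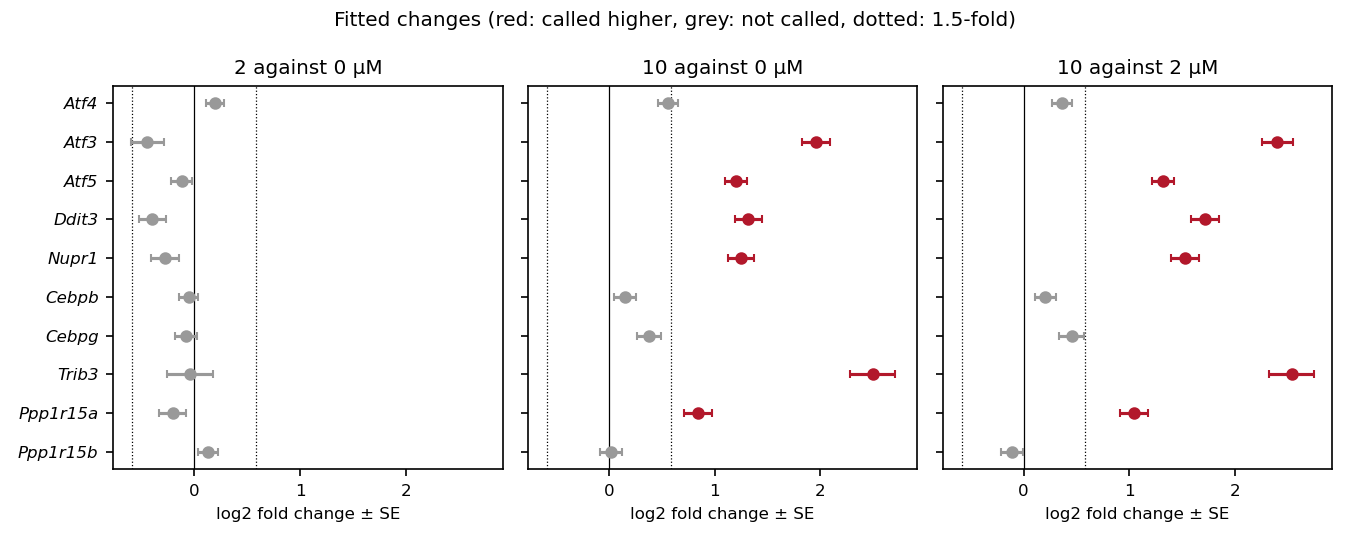
Fitted log2 fold change ± SE of each gene for 2 against 0 µM, 10 against 0 µM and 10 against 2 µM RHPS4 (edgeR, all 8 libraries in the fit), with called genes in red, other genes in grey and dotted lines at 1.5-fold. No gene is red at 2 µM, and the same 6 genes are red in both comparisons of 10 µM.

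Within a library, the ratio of the phosphatase subunits does not depend on scaling. Ppp1r15a counts were 14.6%, 11.8% and 12.7% of Ppp1r15b counts in the 0 µM libraries. At 2 µM the shares were 12.7%, 11.0% and 7.82%, and the 10 µM libraries had 25.9% and 19.7%, above all others. The mean log2 ratio was 0.80 higher at 10 µM than at 0 µM, or 1.74-fold, against a pooled SD of 0.205, and the two-sided exact permutation p was 0.2, the smallest that 3 against 2 libraries can give (0.3 after Benjamini-Hochberg adjustment over the 6 ratio comparisons). Against 2 µM the mean log2 ratio at 10 µM was 1.13 higher, or 2.19-fold, with the same p. Between 2 and 0 µM the mean log2 ratio differed by -0.33, with overlapping libraries (two-sided exact permutation p = 0.3, adjusted p = 0.36, smallest possible 0.1).

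The ratio of the feedback gene Trib3 to Atf4 was also taken within each library. Trib3 counts were 3.24%, 2.47% and 3.81% of Atf4 counts in the 0 µM libraries. The shares were 2.06%, 2.61% and 3.25% with 2 µM RHPS4 and 9.54% and 14.6% with 10 µM. The ratio was higher in both 10 µM libraries than in any other, by 3.77-fold on average (log2 1.91, pooled SD 0.360, two-sided exact permutation p = 0.2, the smallest possible, adjusted p = 0.3). Against 2 µM it was 4.54-fold higher (log2 2.18), with the same p. Between 2 and 0 µM the log2 ratio differed by -0.27 (two-sided exact permutation p = 0.5, adjusted p = 0.5).

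**Figure D3:**
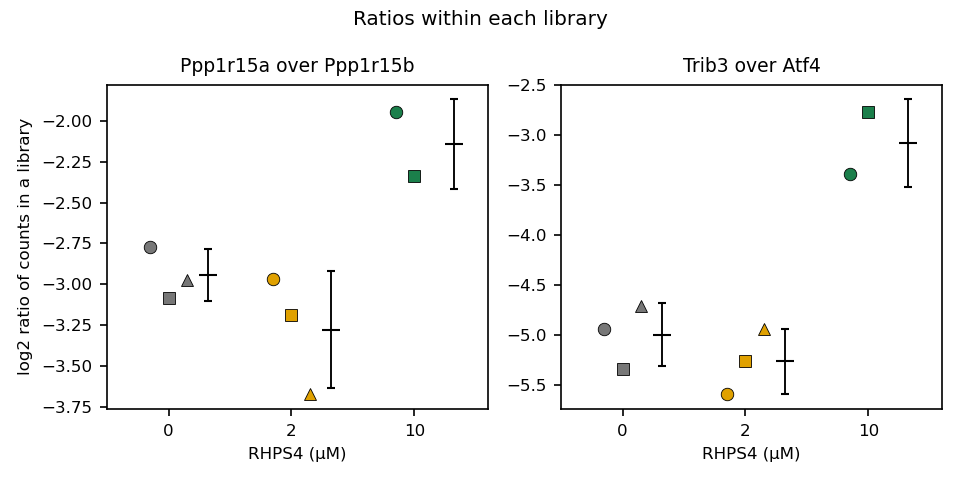
Log2 ratio of counts within each library for Ppp1r15a over Ppp1r15b (left) and Trib3 over Atf4 (right) at 0 µM (grey), 2 µM (orange) and 10 µM RHPS4 (green), with the mean ± SD beside the points (n = 3, 3 and 2) and axes that do not start at 0. In both panels the 2 points at 10 µM lie above all 6 others.

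At 2 µM RHPS4, 0 of the 10 members were called by edgeR's quasi-likelihood test, 3 had an unadjusted p under 0.05 (Atf3, Atf4 and Ddit3), and DESeq2 called 0. Of all tested genes 0.497% were called in this comparison, 0.119% higher and 0.378% lower (17 and 54 genes), and 21.3% had an unadjusted p under 0.05. This background rested on single libraries. It was 28 higher and 116 lower without 0 µM replicate 1, 3 and 16 without 0 µM replicate 2, 3 and 12 without 0 µM replicate 3, and 7 and 17, 2 and 4, and 6 and 23 without the 2 µM replicates 1, 2 and 3, while 0 members were called in each of these fits. The fitted difference was negative for 8 of 10 members, with a median log2 fold change of -0.10 against -0.01 over all tested genes. Every 2 µM library lay below every 0 µM library for 3 of the 10 members, which held in the same direction for 12.9% of all tested genes.

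Set against 2 µM rather than 0 µM, the 10 µM libraries gave larger differences for the same 6 members. Atf3 was 5.28-fold higher than at 2 µM (log2 2.40 ± 0.145 SE, edgeR's adjusted p = 2.07e-06), Trib3 5.80-fold (log2 2.54 ± 0.215, adjusted p = 2.04e-05) and Ddit3 3.29-fold (log2 1.72 ± 0.135, adjusted p = 1.2e-05). Nupr1 was 2.88-fold, Atf5 2.5-fold and Ppp1r15a 2.06-fold higher (edgeR's adjusted p = 2.29e-05, 1.27e-05 and 0.000408). In all, 6 of 10 members were called higher and 0 lower. Of all tested genes 5.51% were called, 3.92% higher and 1.59% lower (561 and 227 genes). These became 410 and 172, 355 and 160, and 414 and 300 genes without the 2 µM replicates 1, 2 and 3. The share of higher calls also fell when either 10 µM library was left out, most without replicate 1. Such fits leave that dose without replicates. Both 10 µM libraries lay above all 2 µM libraries for 9 of 10 members, as they did for 27.0% of all tested genes. Atf4 and Cebpg did not pass (log2 0.36 and 0.45, edgeR's adjusted p = 0.0179 and 0.0166). The comparisons share the 10 µM libraries and are not independent.

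Levels can be set against each other only per length, here as FPKM, the CPM divided by the kilobases of the longest coding transcript of the gene. At 0 µM Atf4 was highest at 175 ± 20.2 FPKM (SD, n = 3), followed by Ddit3 at 24.0 ± 1.18, Cebpb at 23.1 ± 1.16, Ppp1r15b at 19.2 ± 1.84 and Cebpg at 12.2 ± 0.747 FPKM. Atf5 at 10.6 ± 0.656, Nupr1 at 8.38 ± 0.765, Ppp1r15a at 4.94 ± 0.154, Trib3 at 4.74 ± 1.10 and Atf3 at 1.99 ± 0.175 FPKM came below them. In this order only Ddit3 and Cebpb, and Ppp1r15a and Trib3, had overlapping ranges with their neighbour.

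At 2 µM the order was close to this, but Ddit3 (18.4 ± 3.43 FPKM, n = 3) came after Cebpb (22.3 ± 2.17) and Ppp1r15b (21.02 ± 2.18). There the ranges of Cebpb and Ppp1r15b, of Ppp1r15b and Ddit3, and of Trib3 (4.49 ± 0.893) and Ppp1r15a (4.32 ± 0.615) overlapped. At 10 µM Atf4 (258 ± 4.43 FPKM, n = 2) and Ddit3 (60.0 ± 6.49) led, and Trib3 (26.4 ± 7.44) had moved to the third place, with a range that overlapped that of Cebpb (25.7 ± 1.81), which in turn overlapped Atf5 (24.4 ± 2.66). Nupr1 (19.7 ± 1.49 FPKM) and Ppp1r15b (19.5 ± 0.773) overlapped, and Cebpg (15.8 ± 3.42), Ppp1r15a (8.83 ± 1.34) and Atf3 (7.62 ± 0.247) followed, each apart from its neighbours. Atf3, although 3.88-fold higher than at 0 µM, thus stayed the lowest of the 10, by a narrow gap. Its higher 10 µM library was at 7.80 FPKM and the lower one of Ppp1r15a at 7.89 FPKM. With 2 libraries and 1 transcript length per gene, the order of these genes is not firm.

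**Figure D4:**
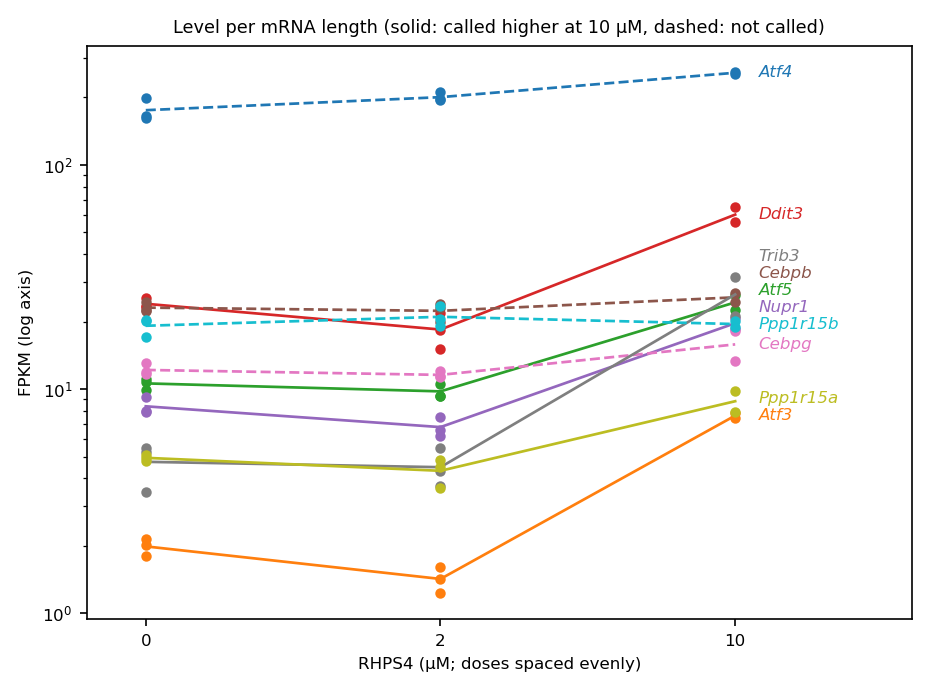
Level per mRNA length of each gene in FPKM (log axis) in each library (points) at 0, 2 and 10 µM RHPS4 (doses spaced evenly), with lines through the means, solid for the 6 genes called higher at 10 against 0 µM and dashed for the others. Atf4 is highest at every dose and Atf3 lowest, while the mean of Trib3 passes those of Nupr1, Atf5, Cebpg, Ppp1r15b and Cebpb between 2 and 10 µM.

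Known targets of ATF4 and CHOP were called higher at 10 µM, and none was called higher at 2 µM. Of 32 targets 31 were tested. At 10 against 0 µM, 17 were called higher and 0 lower by edgeR, and 16 and 0 by DESeq2. Of all tested genes edgeR called 1.95% higher and 1.14% lower. The median log2 fold change was 0.76 over the targets and 0.02 over all tested genes. By p, the leading ones were Slc7a11, the cystine transporter subunit (36.1 ± 0.770, 35.6 ± 2.03 and 126 ± 4.27 CPM at 0, 2 and 10 µM), Aldh1l2, a mitochondrial folate enzyme (93.9 ± 2.91, 78.6 ± 2.78 and 315 ± 20.3 CPM), and Chac1, which degrades glutathione (18.0 ± 1.63, 20.7 ± 0.733 and 74.0 ± 3.71 CPM). They rose by log2 1.80 ± 0.0762, 1.75 ± 0.0744 and 2.05 ± 0.0937 SE (edgeR's adjusted p = 4.22e-07, 4.22e-07 and 4.64e-07). Against 2 µM, 15 targets were called higher and 0 lower by edgeR, led by the same 3 genes, and 13 and 0 by DESeq2. Of all tested genes edgeR called 3.92% higher and 1.59% lower in this comparison. The untested target, Gdf15, had 0 to 14 counts per library and is named after its values were seen. Fgf21, which is among the called targets in both comparisons of 10 µM, is named for the same reason. It had 0 to 4 counts per library at 0 and 2 µM, and 16 and 11 at 10 µM. It thus passed the count filter only through the 10 µM libraries, where it was high, and its calls add no support.

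At 2 against 0 µM, 13 of the 31 tested targets had an unadjusted p under 0.05 by edgeR, 9 of them with a higher level. Of all tested genes 21.3% had such a p and 0.497% were called. The fitted difference was positive for 22 targets and negative for 9. Their median log2 fold change was 0.11, against -0.01 over all tested genes. Of the targets, 0 were called higher and 1 lower. That was Ero1l, an oxidase of the endoplasmic reticulum induced by CHOP and also by hypoxia, at 161 ± 21.9 CPM at 0 µM, 96.8 ± 5.13 CPM at 2 µM and 139 ± 12.8 CPM at 10 µM. It fell 1.67-fold at 2 µM (log2 -0.74 ± 0.0999 SE, edgeR's adjusted p = 0.00316), and no target was called without 0 µM replicate 2, without 0 µM replicate 3 or without any one of the 2 µM libraries.

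A list of 21 genes around eIF2 holds those for the eIF2α kinases, the eIF2 and eIF2B subunits and the mitochondrial relay. It also holds Impact, Dnajc3, Eif2a, Eif2d and the genes for the phosphatase catalytic subunits. Of the 21, edgeR called 0 at 2 against 0 µM and 0 at 10 against 0 µM. An unadjusted p under 0.05 was found for 5 and 4 of them, and DESeq2 called 0 in both. Of all tested genes 0.497% and 3.09% were called in these comparisons and 21.3% and 29.4% had an unadjusted p under 0.05. At 10 against 2 µM edgeR called 1 higher. That was Eif2ak2, the kinase PKR that double-stranded RNA activates, at 79.6 ± 2.17, 71.5 ± 4.63 and 109 ± 5.68 CPM at 0, 2 and 10 µM (log2 0.60 ± 0.0797 SE against 2 µM, edgeR's adjusted p = 0.000486). In that comparison DESeq2 called 0 higher and 1 lower. Of all tested genes edgeR called 3.92% higher and 1.59% lower at 10 against 2 µM, so 1 of 21 is near the common share. By edgeR 11 of the 21 had an unadjusted p under 0.05, 3 of them with a higher level. Such a p was found for 36.5% of all tested genes.

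A further list held 27 genes, all but Cebpz being bZIP factors, the family from which the members draw partners. Of these, 0 were called higher and 2 lower at 2 against 0 µM, the immediate early genes Fos (log2 -1.65 ± 0.204 SE) and Fosb (-1.45 ± 0.202; edgeR's adjusted p = 0.00218 and 0.00363). At 10 against 0 µM, Fosl1, Fosb and Fos were called lower (log2 -1.20 ± 0.129, -1.21 ± 0.219 and -1.18 ± 0.216, edgeR's adjusted p = 0.00017, 0.00482 and 0.00489) and the clock factor Dbp higher (log2 0.75 ± 0.117, adjusted p = 0.00215), so that 1 rose and 3 fell. Fosl1, an AP-1 subunit, was at 71.9 ± 3.45, 75.4 ± 3.33 and 31.3 ± 7.96 CPM at 0, 2 and 10 µM. Fos was at 8.49 ± 0.514, 2.62 ± 0.871 and 3.71 ± 0.972 CPM, low at both doses. DESeq2 called 1 higher and 5 lower at 10 against 0 µM. By edgeR an unadjusted p under 0.05 was found for 14 of the 27 at 2 against 0 µM and 18 at 10 against 0 µM. Of all tested genes 21.3% and 29.4% had such a p. The share of all tested genes called was 0.497%, 3.09% and 5.51% at 2 against 0, 10 against 0 and 10 against 2 µM.
At 10 against 2 µM, Dbp, Nfe2l1 and Nfil3 were called higher (log2 1.15 ± 0.124, 0.67 ± 0.0718 and 0.75 ± 0.136 SE) and Fosl1 and Maff lower (log2 -1.26 ± 0.130 and -0.70 ± 0.140), with edgeR's adjusted p between 8.86e-05 and 0.00514.

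The branches of the unfolded protein response that do not run through eIF2α were read from 16 genes of the ATF6 and XBP1 arm. Of these, 0 were called at 2 against 0 µM by edgeR (3 with an unadjusted p under 0.05) and by DESeq2. Of all tested genes 0.497% were called and 21.3% had such a p. Herpud1, which serves degradation at the endoplasmic reticulum and also has an ATF4 response, was the 1 gene called higher at 10 µM, at 78.3 ± 3.16, 75.5 ± 3.98 and 136 ± 2.20 CPM at 0, 2 and 10 µM (log2 0.80 ± 0.0756 SE against 0 µM and 0.85 ± 0.0759 against 2 µM, edgeR's adjusted p = 6.42e-05 and 3.13e-05). The median log2 fold change of this arm at 10 against 0 µM was -0.10, against 0.02 over all tested genes. In this comparison 7 of the 16 had an unadjusted p under 0.05 by edgeR, 2 of them with a higher level. Of all tested genes 29.4% had such a p and 3.09% were called. At 10 against 2 µM 5.51% of all tested genes were called.

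Genes of at least 10 CPM on average whose level over the 8 libraries ran most like that of a called member were sought by the root mean square (RMS) difference in log2 CPM centred on each gene. Trib3 had Chac1, Iigp1 and Aldh1l2 nearest (RMS 0.337, 0.356 and 0.376 log2 units). Atf3 had Ifi44, Ifit3 and Ifit3b (0.139, 0.139 and 0.185), and among the nearest to Atf5 were Parp10 and Rps6ka2 (0.117 and 0.132). Trib3, whose 10 µM libraries were far apart, had no gene as near as those of the other called members.
Among the nearest to Ddit3 were Rtp4 and Trim12c (RMS 0.170 and 0.177 log2 units), Nupr1 had Mtm1, Tor3a and Rtp4 (0.0859, 0.109 and 0.114), and Ppp1r15a had H1f0, Lyplal1 and Usp11 (0.0743, 0.10 and 0.116). With 8 libraries of 3 doses this likeness mostly describes the dose pattern.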

How the data were processed

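RNA-Seq libraries of MEFs at 0 µM (n = 3), 2 µM (n = 3) and 10 µM RHPS4 (n = 2) were grouped by the treatment in their labels. The authors trimmed the reads (Trim Galore, cutadapt), aligned them to mm10 with STAR 2.5.2a and deposited whole-number counts of uniquely mapped fragments per gene from featureCounts, without normalization. The annotation release and strand setting are not given in the sources used here. Counting without strand would add or drop fragments where genes overlap on opposite strands, as for Cebpb.

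One fit over all 8 libraries, with dose as its factor, was made with edgeR 4.0.16 in R 4.3.3 (TMM, filterByExpr, glmQLFit and glmQLFTest), and p values were adjusted by Benjamini-Hochberg. The standard error is the log2 fold change divided by the square root of F. CPM are TMM scaled and log2 CPM used a prior count of 2. Ratios added 0.5 to each count and were compared by two-sided exact permutation tests. No pair of libraries was within sampling noise, so each counted once. The fit was tested on simulated data. The members and gene lists were chosen with earlier results of these data known. The named genes are every member, the called genes with the 3 smallest p in each direction per list and comparison, and for each called member the 3 genes most like it, of which 1 gene is not reported here.

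Positions and lengths came from GENCODE for GRCm38, which matched 95.6% of the 24460 symbols, and promoters from RefSeq (GRCm38.p6). Alternatives were RLE or total-count scaling, TMM over nuclear genes, other low-count filters, DESeq2 1.42.0, only the groups compared, no minimum fold change, the replicate number as a block, a pseudocount of 5 for ratios, and each library left out in turn. Figures used Python 3.11.15 with matplotlib 3.10.9.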

Additional observations from a re-analysis of the deposited data

How the results depend on the processing

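Over 480 recomputed member log2 fold changes, 461 kept their direction and side of the threshold, 2 lost a call, 5 gained one and 12 changed sign, and in each comparison the count of members called stayed within 1.5 times its value: 0 at 2 against 0 µM, 5 to 8 at 10 against 0 µM and 6 or 7 at 10 against 2 µM. With TMM over nuclear genes only, 6 were called in both comparisons of 10 µM. All sign changes were of members that were not called. With total counts only, Cebpb, Cebpg and Trib3 were at log2 0.0274, 0.00429 and 0.0382 for 2 against 0 µM and Ppp1r15b at 0.0271 for 10 against 2 µM. Ppp1r15b for 10 against 0 µM was at -0.0183 without a filter on low counts and at -0.0146 by DESeq2. With each library left out in turn, Trib3 for 2 against 0 µM ran from -0.232 to 0.0784 (positive without 0 µM replicate 1, 0.0517, without 0 µM replicate 3, 0.0784, and without 2 µM replicate 1, 0.0743), Cebpb from -0.108 to 0.0324 (positive without 2 µM replicate 3), and Ppp1r15b for 10 against 0 µM from -0.0760 to 0.0581 (negative without 0 µM replicate 1 and, at -0.0467, without 10 µM replicate 2).

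Total-count scaling shifted the median log2 fold change of all tested genes to 0.23 at 10 against 0 µM and 0.16 at 10 against 2 µM, made 92.6% and 91.7% of the calls higher (63.1% and 71.2% with TMM; 39.4% against 23.9% at 2 against 0 µM), and called Atf4 (0.78) and Cebpg (0.59) at 10 against 0 µM and Cebpg (0.59) at 10 against 2 µM. Other settings lowered that share, at 10 against 0 µM to 45.2% without 0 µM replicate 1, 48.5% without 10 µM replicate 1, 46.6% by DESeq2 and 49.1% without a filter, and at 10 against 2 µM to 49.0% without 10 µM replicate 1 and 57.0% by DESeq2. Cebpg was also called at 10 against 2 µM without 10 µM replicate 2 (0.62). The count of ATF4 and CHOP targets called at 2 against 0 µM, 1, was 2 without a filter and by DESeq2, and 0 to 2 with each library left out (2 without 0 µM replicate 1). All ratios kept their direction.

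Whether replicate numbers pair the libraries could not be settled. The same-numbered pairs of 0 and 2 µM had correlations of deviations of 0.199, 0.0845 and 0.161. Between these doses every library correlated best with its own number, which is a hint from the data only. The correlations with 10 µM cannot decide it, because the deviations of 2 libraries from their mean are equal and opposite. The fit with the replicate number as a block called 0, 6 and 6 members (2 against 0, 10 against 0 and 10 against 2 µM) and changed the call of no member. It called 54, 322 and 735 of all tested genes in place of 71, 442 and 788. The depth limits Atf3 and Nupr1 most, which had 30 to 242 and 62 to 253 counts per library, and 2 libraries at 10 µM leave the spread there to be shared with the other doses.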
